A study of Mus musculus with 11 samples.

Results

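The Sertoli valve (SV), the terminal segment of the seminiferous tubule, was set against the rete testis (RT), the network of channels into which that segment opens, in every array of both regions. These were 4 arrays of the SV and 3 of the RT, 7 of the 11 arrays in the series. The other 4 arrays held convoluted seminiferous tubules (ST) taken far from the RT. They gave the tubule level of each gene and entered the fit for the spread between arrays. Each array measured total RNA of pieces from 20 pooled testes of 7-week-old W/Wv mice. All groups therefore share this genotype, 2 mutant alleles of the receptor gene Kit that leave few germ cells in the tubules, and no group stands for a wild-type testis. Trypan blue was injected through the efferent ducts to show the regions, which were then cut apart by hand. The study's methods state that SV pieces probably held some cells of the RT, because one tube runs into the other. The arrays are called SV1 to SV4, RT1 to RT3 and ST1 to ST4 after the replicate numbers in the labels.

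Both regions lie on the path of sperm and fluid out of the testis. In the SV, modified Sertoli cells form a valve-like structure at the lumen. The study states that it may steer the flow of fluid and sperm, and that its exact function is unclear. The RT is lined by a simple epithelium with keratins, E-cadherin and desmosomes, related to the ducts that follow it, and it takes up and secretes fluid. Sertoli cells of the convoluted tubules answer to FSH and androgen and support germ cells. Retinoic acid drives spermatogonia to differentiate there, and enzymes of the CYP26 family break it down.

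The SV and the RT differed widely, and more probe sets were lower than higher in the SV. A probe set is a group of short probes for one transcript, and its signal is the MAS5.0 value scaled by the authors to the same trimmed mean on every array. Of 45101 probe sets, 1332 (2.95%), of 950 genes, passed the test as higher in the SV than in the RT, with an adjusted p below 0.05 and a difference of over 2-fold. Another 2251 (4.99%), of 1431 genes, were called lower in the SV. Counting 1 probe set for each of 18194 genes, 799 genes (4.39%) were called higher and 1166 (6.41%) lower. Over 4-fold differences were called in 312 probe sets higher and 864 lower in the SV, and over 16-fold differences in 7 and 64. The SV and RT arrays did not overlap in 1263 of the 1332 probe sets called higher and 2187 of the 2251 called lower. Over all probe sets, every SV array was above every RT array in 10.1% and below in 15.4%. Log2 differences in the following are SV minus RT, with the standard error of the limma fit.

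**Figure D1:**
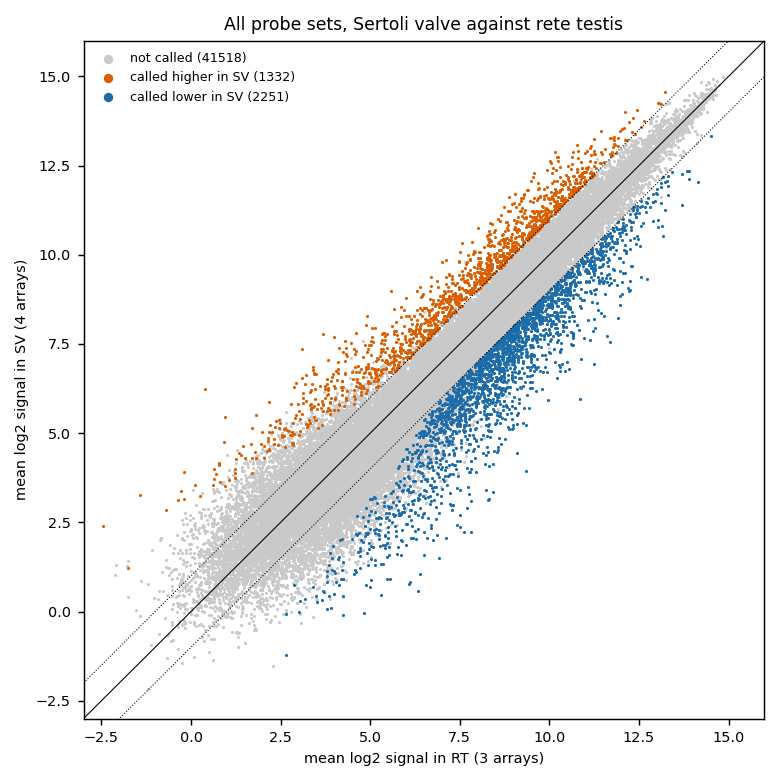
Mean log2 signal of each of 45101 probe sets in the RT (x axis, 3 arrays) and in the SV (y axis, 4 arrays). Orange points are the 1332 probe sets called higher in the SV, blue points the 2251 called lower and grey points the rest. The solid line marks equal signal and the dotted lines a 2-fold difference. The blue points reach farther from the line than the orange ones.

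These counts depended on the scaling and on the RT arrays. The median log2 difference over all probe sets was -0.11, and 37.2% of the calls were higher in the SV. With quantile normalization that median was 0.03 and the calls were 1919 higher and 1731 lower (52.6% higher). With median centring it was 0.20, and the calls were 2710 and 1349 (66.8% higher). With the replicate number as a block, 1499 probe sets were called higher and 3593 lower. RT3 was the RT array nearest to the SV arrays in 1088 of the 1332 probe sets called higher (81.7%) and in 1455 of the 2251 called lower (64.6%). Without RT1, 878 were called higher and 1194 lower, and without RT2 1035 and 1313. Without RT3 the counts were 1725 and 2240. Replicates 1 and 2 also stood apart from 3 and 4 in a control probe set of 18S ribosomal RNA, with signals of 20675–32135 against 6064–12751. With this split as a block, 1400 probe sets were called higher and 3102 lower. A fit on the first 2 replicates of each region called 1287 higher and 2304 lower, and one on the later replicates none in either direction at the adjusted threshold of limma and 1656 and 2321 at an unadjusted p under 0.05 and over 2-fold.

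The region labels were set against marker genes. The lists were chosen with earlier results of these data known, so they give no independent check of the labels. Of 25 measured Sertoli cell markers, 14 were called higher in the SV than in the RT and none lower, against 4.39% higher and 6.41% lower of all genes, with a median log2 difference of 1.19 against -0.04 over all genes. The 14 include the hormone gene Inhbb, with signals of 4907, 6580.0, 9104 and 6917 in SV1 to SV4 and 1286, 1572 and 2758 in RT1 to RT3 and a log2 difference of 1.92 ± 0.24 (adjusted p = 0.000314). They also include the transcription factor genes Dmrt1 (2606–4405 against 373–1088, 2.42 ± 0.28) and Sox8 (1414–1914 against 454–637, 1.62 ± 0.16), where values are the lowest and highest signal in the SV against those in the RT, then the log2 difference. Shbg, for the androgen-binding protein, was likewise higher, with 1648–3510.4 in the SV, 297–979 in the RT and a log2 difference of 2.38 ± 0.35 (adjusted p = 0.000812). For 9 of the 25 markers the 95% interval of the difference lay within 2-fold, as it did for 42.6% of all genes. These include 3 transcription factor genes of the gonad, Sox9 at 0.03 (95% interval -0.41 to 0.46), Wt1 at -0.26 (95% interval -0.55 to 0.02) and Gata4 at 0.25 (95% interval -0.08 to 0.58). The RT arrays thus carried signals of 1377–1990.5 for Sox9 and 5796–7833 for Wt1. In bulk pieces, fewer cells of a type and less RNA per cell cannot be told apart.

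Of 13 measured markers of the RT epithelium, 11 were called lower in the SV and none higher, with a median of -2.49. Of all genes, 6.41% were called lower and 4.39% higher. For Krt8, a keratin of simple epithelia, the signals were 1273, 539, 411 and 713 in SV1 to SV4 and 7552, 7157 and 3939 in RT1 to RT3, with 30.7, 77.7, 99.5 and 70.9 in ST1 to ST4. Its log2 difference was -3.16 ± 0.42 (adjusted p = 0.000422). For Pax8, a transcription factor of the ducts and kidney, they were 1124, 443, 303 and 676 in SV1 to SV4 and 3690.0, 3319 and 2831 in RT1 to RT3, and the difference was -2.53 ± 0.41 (adjusted p = 0.00129). Neither gene's SV and RT arrays overlapped, and SV signals lay between those of the RT and the ST in both. Summed over the 13 markers, the signal was 3862–8509 in the SV, 22930–38292 in the RT and 927–1426 in the ST. The same order held for Cdh1, the gene of E-cadherin, with 716–2031 in the SV, 5359.8–7062 in the RT and 51.8–86.5 in the ST. It held for Mal2, a membrane protein of epithelia, with 111–369, 1132–1535 and 0.833–2.39. RT markers thus ran above the tubule level in every SV array, and their share in the SV level of other genes was not tested.  Among these 11 markers, Krt7 lost its call without SV1, SV2, SV3, SV4, RT1, RT2, RT3 or ST2, and Cldn7 without SV1, SV2, SV4, RT1 or RT2.

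**Figure D2:**
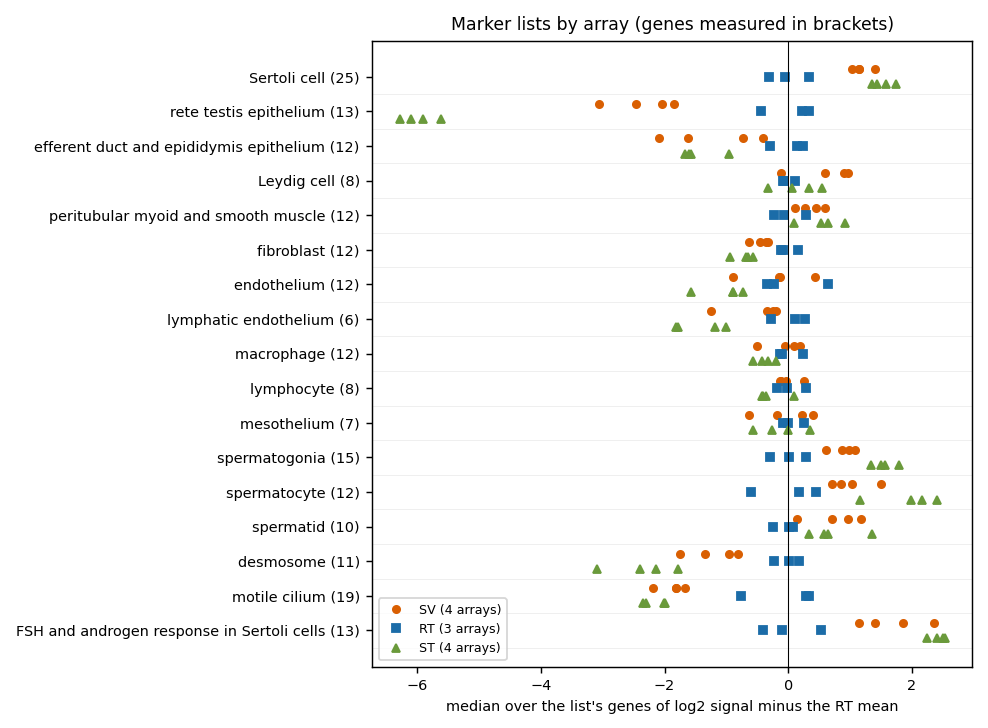
Each point is 1 array. The x axis gives the median, over the genes of a list, of the log2 signal minus the RT mean of that gene, and the y axis the list with its number of measured genes. Sertoli cell markers lie right of the RT in all 4 SV arrays, RT epithelium markers lie left of it, and macrophage markers overlap between the regions.

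The counts for further cell types are to be read against 4.39% of all genes called higher and 6.41% called lower. Of 12 markers of efferent duct and epididymis epithelium, the ducts that follow the RT, 4 were lower in the SV and none higher, with a median log2 difference of -0.87. The 4 were Foxj1, Cftr, Slc9a3 and Aqp1, genes of cilia and of transport given with their functions further on, and without RT3 6 were called. The summed signal of the 12 markers overlapped between the regions, at 17464–33776 in the SV and 26266–36365 in the RT, and was 11266–16053 in the ST. Of 6 lymphatic endothelium markers 1 was lower, Pdpn (2088–3797 against 5745–6433, -1.05 ± 0.18), for podoplanin, not without SV3 or RT1. No macrophage, lymphocyte or mesothelium marker was called. For all 12 macrophage markers the interval lay within 2-fold, and their summed signal was 22953–34420 in the SV and 27395–33929 in the RT. Of 8 Leydig cell markers only the lipoprotein receptor gene Scarb1 (3945–5842 against 1284–3219, 1.36 ± 0.26) was called, and of 12 endothelial markers only the VEGF receptor gene Kdr (604–1044 against 2642–3138, -1.76 ± 0.22), which was lower. Of 12 peritubular markers 3 smooth muscle genes were higher in the SV, including Acta2, for smooth muscle actin, at 7340.3–8621 against 2312–4989 with a log2 difference of 1.42 ± 0.24 (adjusted p = 0.00175). The others were Cnn1 (150.3–214 against 10.8–111, 2.57 ± 0.61), which lost its call without RT1 or RT2, and Actg2 (166–265 against 55.8–180.1, 1.44 ± 0.38), which lost it without SV2, RT1 or RT2. Smtn (209.7–324 against 559.6–758, -1.23 ± 0.24), for the contractile protein smoothelin, was lower. Without RT1 or RT2, 1 of the 12 was called higher. The 2 fibroblast genes called were lower in the SV, Dpt (91.9–128 against 281–431, -1.66 ± 0.21) and the collagen gene Col1a1 (298–392 against 597–918, -1.10 ± 0.18), the latter not without RT1.

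The 25 genes with the largest excess in the SV, chosen among called genes with no overlap between the regions and ranked after a floor of 32 on the signal, were 2.51 to 3.40 higher on the log2 scale. A gene of uncertain role here, Sgsm3, headed them with signals of 420.1, 435, 896 and 403 in SV1 to SV4 and 38.0, 28.4 and 103 in RT1 to RT3, a log2 difference of 3.40 ± 0.39 (adjusted p = 0.000237). Several were genes of Sertoli cells. For Tsx, a gene of the X chromosome transcribed in Sertoli cells, the signals were 4855, 6885, 10825 and 6271 in SV1 to SV4 and 525, 1421 and 2272 in RT1 to RT3, and the difference was 2.53 ± 0.39 (adjusted p = 0.000929). For Cstdc1, of the cystatin family of protease inhibitors, they were 6305, 6843, 9781 and 7404 in SV1 to SV4 and 631, 964 and 2494 in RT1 to RT3, and the difference was 2.70 ± 0.34 (adjusted p = 0.000314). In each of these genes RT3 was the highest RT array, and it lay below every SV array by the rule of choice.

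Proteins secreted or at the cell surface were among the 25. Frzb, an inhibitor of WNT ligands, had signals of 1568, 1595, 2264 and 2286 in SV1 to SV4 and 196, 237 and 755 in RT1 to RT3 and a log2 difference of 2.54 ± 0.35 (adjusted p = 0.000532). Lrp8, a receptor for reelin and selenoprotein P, had signals of 1761, 2960.0, 3405 and 2605 in SV1 to SV4 and 275, 442 and 622 in RT1 to RT3 and a difference of 2.62 ± 0.26 (adjusted p = 0.000159). The other leading genes include the transcription factor genes Tbx22 (1068–2724 against 117–649.5, 2.76 ± 0.44) and Foxq1 (465–964 against 54.4–206, 2.68 ± 0.35), the membrane protein genes Emb (3447–5144 against 448–1402, 2.56 ± 0.30) and Tmem114 (4824–9848 against 699–2665, 2.51 ± 0.36), the lectin receptor gene Clec12b (2759.9–4309 against 292–948, 2.65 ± 0.29) and Pcsk1n (307–424 against 19.7–87.5, 2.81 ± 0.40), whose product inhibits a prohormone convertase. For Racgap1 (785–2148 against 113–448, 2.76 ± 0.41), a regulator of cytokinesis, 1 of 2 further probe sets was also called higher. The same held for Emb and Gm9112, whereas the 1 further probe set of Bend6 was not called. Of the 25 genes, 24 were called whichever array was left out, and 1, Rpl39l, lost its call without RT1 or RT2. All 25 were called with the replicate block.

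**Figure D3:**
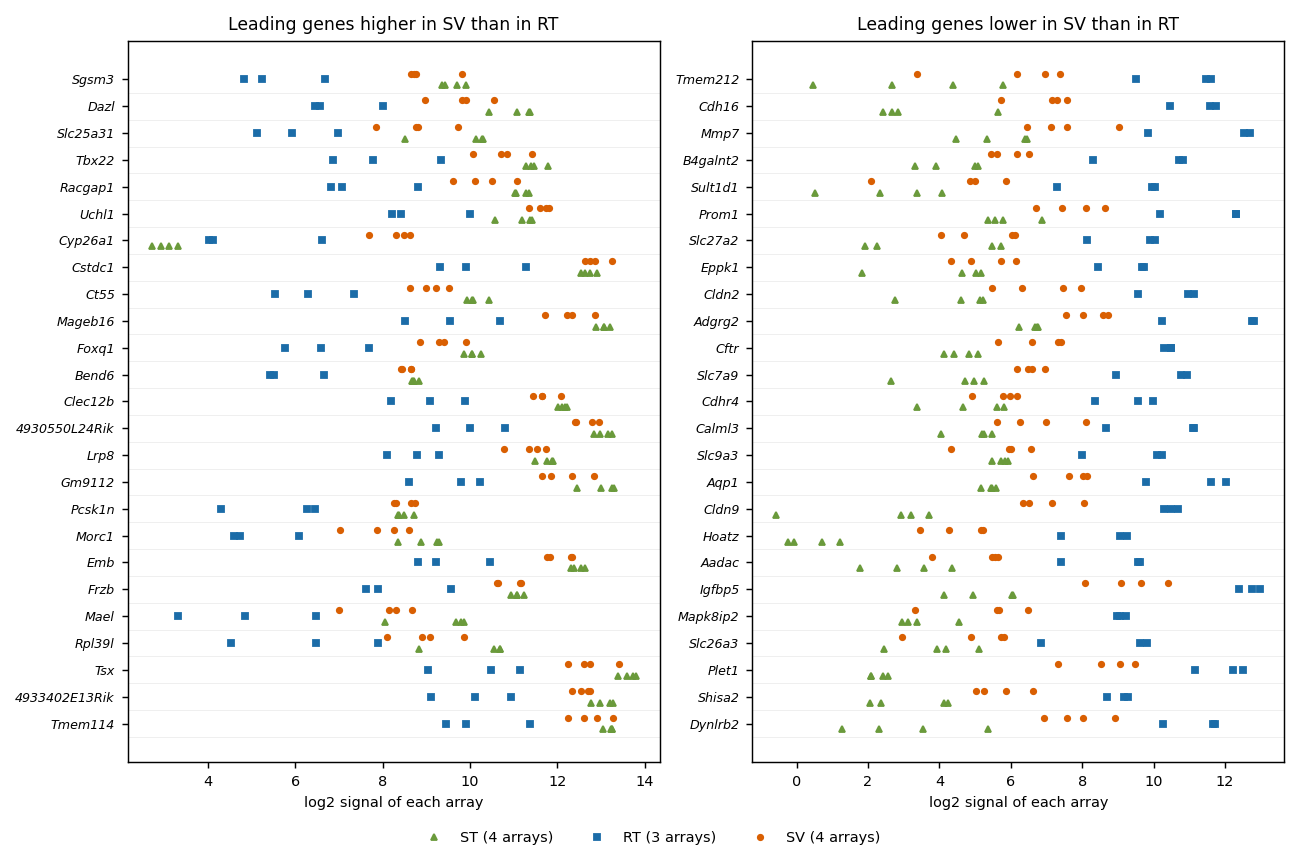
Log2 signal (x axis) of every array for the 25 leading genes higher in the SV than in the RT (left) and the 25 lower (right), 1 line per gene. Circles are SV, squares RT and triangles ST arrays. On the left the ST mean lies below the SV mean in Cyp26a1, Uchl1, Cstdc1 and Pcsk1n, by far the most in Cyp26a1, and above it in the other 21 genes. On the right it lies below the SV mean in 24 of 25 genes.

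Germ cell genes made up another part of the leading genes, although W/Wv tubules hold few germ cells. Dazl, an RNA-binding protein of germ cells, had signals of 497, 953, 1503 and 903 in SV1 to SV4 and 87.9, 95.3 and 256 in RT1 to RT3, with 1373, 2164, 2589 and 2659 in ST1 to ST4. Its log2 difference was 2.80 ± 0.40 (adjusted p = 0.000648). Mael, which acts in the silencing of transposons in the male germ line, had 128, 314, 405 and 282 in SV1 to SV4 and 28.8, 9.89 and 88.7 in RT1 to RT3, with 267, 926, 814 and 890.3 in ST1 to ST4, and a difference of 3.15 ± 0.64 (adjusted p = 0.00555). Both genes were lowest in the RT, and in both the ST arrays reached the highest signals. Further germ cell genes among the 25 were Slc25a31 (229.9–847 against 35.0–126, 2.78 ± 0.52), the mitochondrial nucleotide carrier of the germ line, and Morc1 (129.9–389.9 against 24.1–67.7, 2.80 ± 0.42), required in meiosis. Ct55 (396–732 against 46.5–162, 2.70 ± 0.34) and Mageb16 (3350.1–7392 against 364–1652, 2.70 ± 0.38) are testis genes of the X chromosome. Mageb16 had signals of 8623, 8509, 9451 and 7530 in ST1 to ST4, and the cells that express these genes were not tested. Uchl1 (2612–3602 against 295–1030.1, 2.75 ± 0.35), a ubiquitin hydrolase, marks spermatogonia but also neurons and other cells.

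By list, 7 of 15 spermatogonial markers were higher in the SV and 2 lower, with a median log2 difference of 0.86. The counts for germ cells stand against 4.39% of all genes called higher and 6.41% called lower. Beside Dazl and Uchl1, Sall4 (64.3–371 against 1.87–28.9, 4.26 ± 0.85), a factor of undifferentiated cells, and Stra8 (104–245 against 20.1–55.8, 1.88 ± 0.39), which is induced by retinoic acid, were higher. Every RT signal of Sall4 lay under the floor used to rank the leading genes, so the size of its difference is uncertain. It is not comparable with the differences of the leading genes, which were ranked after that floor. Ddx4 (145–397 against 29.2–98.1, 2.41 ± 0.55), the germ cell helicase Vasa, was called with all arrays but not without RT1 or RT2. Without RT1 or RT2, 4 of the 15 were called higher. The 2 that were lower were receptors of GDNF, Gfra1 with 624, 294, 372 and 754 in SV1 to SV4 and 2379, 2328 and 2698 in RT1 to RT3 and a difference of -2.37 ± 0.39 (adjusted p = 0.00151), and Ret (92.0–115 against 159–425, -1.53 ± 0.33), which lost its call without RT1 or RT2. Both are also known from neurons and from the duct that forms the kidney. For Kit, the gene mutated in these mice, the signals were 542–1732 in the SV and 1206–1692 in the RT, and the difference of -0.19 (95% interval -1.02 to 0.64) was not called. Of 12 spermatocyte markers 3 were higher and 1 lower, but none of the 3 was called without RT1, RT2, SV3 or SV4. The lower one was Rec8 (111–161 against 455–594, -1.97 ± 0.29), a meiotic cohesin. Of 10 spermatid markers 1 was higher, Spaca1 (478–627 against 212–248, 1.22 ± 0.15), and the protamine gene Prm1 had signals of 4.63–51.7 and 7.98–40.2. The summed signal of the spermatogonial markers was 10572–13012 in the SV, 9708–10563 in the RT and 12013–16040 in the ST.

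To place the leading genes next to sequence, the promoter of each, 250 bases before to 50 after the start of the gene, was looked up by symbol in the RefSeq table of the build GRCm38.p6, where 23 of the 25 genes higher and 21 of the 25 lower in the SV had an entry. CACGTG, the E-box bound by many basic helix-loop-helix factors and palindromic on both strands, was found in 4 of the 23 promoters (Bend6, Ct55, Mael and Slc25a31) and in 1 of the 21. Of 27025 promoters in the table, 7.24% hold it. The promoter of Mael lies at chr1:166238695-166238994 on the minus strand and is shown 5′ to 3′ as an example from the germ cell genes, with the E-box in capitals.
Mael: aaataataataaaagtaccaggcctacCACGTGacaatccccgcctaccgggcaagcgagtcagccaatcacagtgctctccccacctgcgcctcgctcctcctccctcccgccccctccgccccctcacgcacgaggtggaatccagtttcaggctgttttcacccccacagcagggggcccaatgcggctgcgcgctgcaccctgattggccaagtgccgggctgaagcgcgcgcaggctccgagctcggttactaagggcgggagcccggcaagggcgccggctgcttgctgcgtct

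Cyp26a1 stood apart from the other leading genes. It encodes the cytochrome that breaks down retinoic acid, and it was the 1 gene of the 25 that was also called higher in the SV than in the ST. Its signals were 392, 359, 206 and 317 in SV1 to SV4 and 17.3, 16.4 and 97.3 in RT1 to RT3, with 6.56, 8.59, 9.92 and 7.66 in ST1 to ST4. The SV arrays did not overlap with the ST arrays, nor, by the rule of choice, with the RT arrays. RT3 was the highest of the RT arrays, and the ST arrays were all under 10. The log2 difference was 3.36 ± 0.58 (adjusted p = 0.00187) from the RT and 5.26 (95% interval 4.11 to 6.41) from the ST, and the call against the RT held whichever array was left out. In replicates 3 and 4 alone, with SV3 and SV4 against the 1 RT array, the difference was 1.39 and not called (adjusted p = 0.354 by limma).

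The Cyp26a1 promoter, chr19:37697558-37697857 on the plus strand of GRCm38.p6, is shown because it holds a direct repeat on the reverse strand, AGTTCA, then any 5 bases, then AGTTCA again. Elements of this kind are known to bind retinoic acid receptors, as background. The repeat was searched on both strands, and 7 of 27025 promoters in the table hold it (0.0259%). Among the leading genes it occurred only in Cyp26a1, the promoter it was chosen to show, so this is no separate result. The repeat is in capitals, read from the plus strand as TGAACT.
Cyp26a1: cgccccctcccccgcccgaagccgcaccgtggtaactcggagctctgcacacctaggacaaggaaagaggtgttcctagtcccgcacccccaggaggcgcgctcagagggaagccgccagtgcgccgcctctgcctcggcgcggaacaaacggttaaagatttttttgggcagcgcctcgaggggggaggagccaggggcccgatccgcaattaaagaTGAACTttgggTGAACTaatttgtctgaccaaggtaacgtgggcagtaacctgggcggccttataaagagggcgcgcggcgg

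Other genes of retinoic acid metabolism differed less. Of 14 measured, 3 were called higher in the SV and none lower, against 4.39% and 6.41% of all genes, with a median log2 difference of 0.01. Beside Cyp26a1 these were Aldh1a2, a synthesizing enzyme, and Rbp4, the retinol carrier of plasma. Aldh1a2 had signals of 779, 712, 508 and 608 in SV1 to SV4 and 229.6, 192 and 344 in RT1 to RT3 and a difference of 1.38 ± 0.22 (adjusted p = 0.00116), and Rbp4 had 226, 295, 280.1 and 404 in SV1 to SV4 and 126, 128 and 142 in RT1 to RT3 and 1.16 ± 0.21 (adjusted p = 0.00243). The related gene of a degrading enzyme, Cyp26b1, had 1543–1958 in the SV and 893–1175 in the RT, a difference of 0.82 ± 0.14 (adjusted p = 0.00164) that was under 2-fold and not called. None of the 6 retinoid receptor genes was called, among them Rara at 0.52 (95% interval 0.01 to 1.03) and Rarb at 1.11 (95% interval -0.50 to 2.71).

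A few more genes were called higher in the SV than in both other regions. Among genes named by the study and list members these were Tnmd, Klhl30, Sema3d, Ptpn5, Wnt4, Fstl3 and Serpina3n. Tnmd, for the membrane protein tenomodulin, had signals of 771, 875, 407 and 710.1 in SV1 to SV4 and 113, 73.2 and 316 in RT1 to RT3, a difference of 2.27 ± 0.51 (adjusted p = 0.00929) from the RT and of 5.06 (95% interval 4.05 to 6.08) from the ST. Fstl3, an inhibitor of activin, had 1290.0, 982, 846 and 1176 in SV1 to SV4 and 346, 322 and 471 in RT1 to RT3 and a difference of 1.50 ± 0.19 (adjusted p = 0.000349), with 1.22 (95% interval 0.83 to 1.60) from the ST. Wnt4, a WNT ligand, had 1414, 1403, 905 and 1029 in SV1 to SV4 and 567, 481 and 526 in RT1 to RT3, with 1.16 ± 0.19 (adjusted p = 0.00138) and 1.66 (95% interval 1.28 to 2.03). In these 3 genes no RT array reached the lowest SV array. Tnmd was not called without RT1 or RT2, Klhl30 not without SV4, RT1 or RT2, Serpina3n not without SV2, SV4, RT1 or RT2 and Sema3d not without SV1, SV2, SV3, SV4, RT1, RT2 or ST4, whereas Ptpn5, Wnt4 and Fstl3 were called higher than in the RT whichever array was left out.

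Genes that answer to FSH or androgen in Sertoli cells were mostly higher in the SV. Of 13 measured, 8 were higher in the SV than in the RT and 1 lower, with a median log2 difference of 1.75. Of all genes, 4.39% were called higher and 6.41% lower. Fshr, the FSH receptor, had signals of 429, 511, 1048 and 776 in SV1 to SV4 and 145, 157 and 317 in RT1 to RT3 and a difference of 1.75 ± 0.31 (adjusted p = 0.00213). Rhox5, an androgen target on the X chromosome, had 1776, 2688, 6120.2 and 3006 in SV1 to SV4 and 228, 686 and 1446 in RT1 to RT3 and 2.33 ± 0.50 (adjusted p = 0.00701). Aqp8, an aquaporin, had 1202, 1497, 3489 and 1912 in SV1 to SV4 and 149.8, 293 and 869 in RT1 to RT3 and 2.47 ± 0.46 (adjusted p = 0.00331). In all 3 the SV arrays lay above the RT arrays, with RT3 the nearest. Drd4 (2215–5874 against 509.9–1386, 2.01 ± 0.35), a dopamine receptor, and Hsd17b1 (107–313 against 24.1–55.8, 1.96 ± 0.39), a steroid dehydrogenase, were higher too. Tubb3, for class III beta-tubulin, was among the clearest, with 2319.6, 2603, 2290.2 and 1688 in SV1 to SV4 and 277, 369.9 and 636 in RT1 to RT3 and 2.45 ± 0.25 (adjusted p = 0.000159). Of 16 tubulin and tubulin acetylation genes it was called with 1 other, the deacetylase gene Hdac6 (6101–8951 against 2033–3681, 1.33 ± 0.19). The 1 gene of the FSH and androgen list that was lower was Cldn3, an androgen-regulated claudin that is also a claudin of the RT, with 1189, 631, 465 and 779.6 in SV1 to SV4 and 5814, 4839.6 and 3138 in RT1 to RT3 and a difference of -2.62 ± 0.30 (adjusted p = 0.000247).

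**Figure D4:**
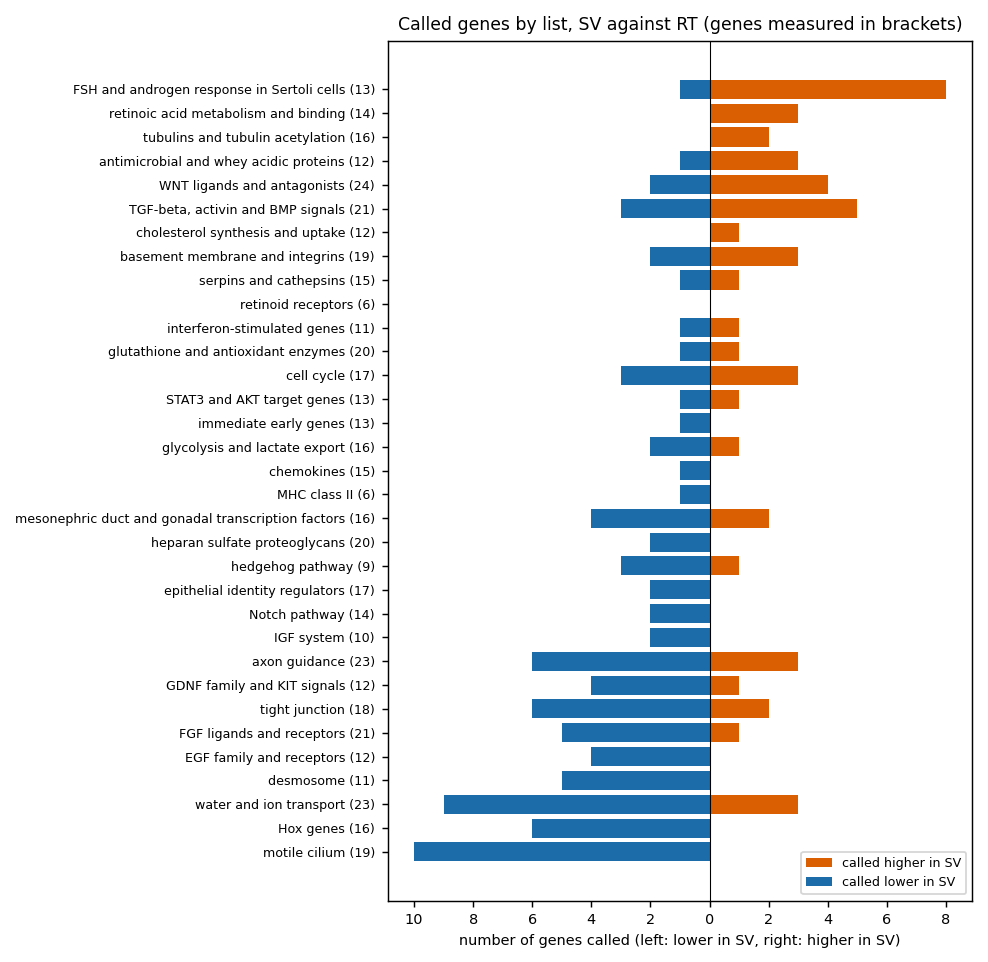
Number of genes called per list of function, without the cell type markers and the genes the study names (x axis, counted from 0 to each side), blue bars to the left for genes lower and orange bars to the right for genes higher in the SV than in the RT, with the number of measured genes after each list name. Among these lists, motile cilium genes give the longest blue bar (10 of 19) and FSH and androgen response genes the longest orange bar (8 of 13).

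The 25 genes with the largest deficit in the SV differed more than those in the other direction, by -4.89 to -3.35 on the log2 scale. Cdh16, a cadherin of kidney and duct epithelium, had signals of 157, 142, 52.8 and 189.6 in SV1 to SV4 and 3425, 3059 and 1394 in RT1 to RT3 and a difference of -4.32 ± 0.69 (adjusted p = 0.00127). Mmp7, a protease of glandular epithelia, had 527, 141, 88.0 and 191 in SV1 to SV4 and 6648, 5903 and 923 in RT1 to RT3 and -4.14 ± 0.73 (adjusted p = 0.00218). Prom1, a protein of membrane protrusions, had 274, 171, 105 and 402 in SV1 to SV4 and 5031, 5088 and 1160.2 in RT1 to RT3 and -3.87 ± 0.56 (adjusted p = 0.000656). In all 3, RT3 was the lowest of the RT arrays, and it lay above the SV arrays by the rule of choice. Igfbp5, which binds insulin-like growth factors, had 1363, 547, 271 and 798 in SV1 to SV4 and 8114, 6962 and 5336 in RT1 to RT3 and -3.40 ± 0.52 (adjusted p = 0.000941). Adgrg2, an adhesion receptor of the efferent ducts, had 421, 259, 188 and 385 in SV1 to SV4 and 7196, 6867 and 1195 in RT1 to RT3 and -3.71 ± 0.51 (adjusted p = 0.000503). Plet1, a surface protein of epithelial progenitors, had 715, 371, 160.3 and 531 in SV1 to SV4 and 5859, 4751 and 2271 in RT1 to RT3 and -3.36 ± 0.45 (adjusted p = 0.000459), with 5.95, 4.27, 4.23 and 5.36 in ST1 to ST4. All of these were called whichever array was left out.

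Of the 25, 19 were called whichever array was left out. Tmem212, Sult1d1, Slc27a2, Slc26a3 and Dynlrb2 were not called without RT1 or RT2, and Cldn9 not without RT1. All 25 were called with the replicate block, and in 24 of the 25 RT3 was the RT array nearest to the SV. The exception was Cftr, where RT2 was the lowest. Some of these genes had further probe sets that were not called. This held for the 1 further probe set of Cftr, Slc9a3 and Cldn2 and for all 4 of Mapk8ip2. For B4galnt2 and Slc26a3 1 of 3 further probe sets was called lower, and for Plet1 1 of 2.

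Desmosomes join epithelial cells to each other. Of 11 desmosome genes 5 were lower and none higher, against 6.41% and 4.39% of all genes, with a median log2 difference of -1.10. Dsg2, a desmosomal cadherin, had signals of 278, 142, 164 and 257 in SV1 to SV4 and 3009, 2116 and 1277 in RT1 to RT3 and a difference of -3.31 ± 0.34 (adjusted p = 0.000163), and Dsp, for desmoplakin, had 2723, 1352, 1108 and 2587 in SV1 to SV4 and 10195, 7284 and 9913 in RT1 to RT3 and -2.32 ± 0.32 (adjusted p = 0.00055). Every RT array lay above every SV array in both. Pkp2 (582–837 against 2391–2500.2, -1.80 ± 0.17), for plakophilin, was lower as well. Jup (166–292 against 414–598, -1.10 ± 0.23), for plakoglobin, lost its call without SV4 or RT1, and Evpl (73.3–227 against 449–568, -1.85 ± 0.50), for envoplakin, without SV2, SV3, RT1 or RT2. Without RT1, 3 of the 11 were called.

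Tight junction genes split by member. Of 18, 6 were lower in the SV and 2 higher, against 6.41% and 4.39% of all genes. The claudin genes Cldn2 (44.2–248 against 752–2238, -3.75 ± 0.67), Cldn10 (109.5–307 against 532–2019.5, -2.80 ± 0.45) and Cldn3 were lower, and so was Marveld2 (62.5–112 against 249–423, -1.86 ± 0.31), for tricellulin, a protein of cell corners. Cldn23 was higher, with 177, 221, 440.2 and 168 in SV1 to SV4 and 49.0, 79.4 and 78.6 in RT1 to RT3 and 1.78 ± 0.33 (adjusted p = 0.00276), as was the junction plaque gene Cgn (3071–5763 against 1465–2749, 1.14 ± 0.24), the latter not without SV3 or RT1. Cldn11, the claudin of the blood-testis barrier, had 6184–9083 in the SV and 5980.2–7883 in the RT, a difference of 0.10 (95% interval -0.36 to 0.56) that lay within 2-fold.

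Genes of motile cilia were lower in the SV, 10 of 19 with none higher and a median log2 difference of -1.88. Of all genes, 6.41% were called lower and 4.39% higher. Motile cilia beat on single cells of ducts and are built under the factors FOXJ1 and RFX. Foxj1 had signals of 295, 139, 131 and 189 in SV1 to SV4 and 2264, 2398 and 732 in RT1 to RT3, with 16.9, 27.2, 33.3 and 18.5 in ST1 to ST4, and a difference of -3.15 ± 0.43 (adjusted p = 0.000484). Rsph4a, of the radial spoke head, had 111, 92.7, 52.3 and 67.5 in SV1 to SV4 and 1068, 1011 and 319.8 in RT1 to RT3 and -3.18 ± 0.45 (adjusted p = 0.000627), and Ccdc39, needed to assemble dynein arms, had 97.9, 68.3, 153 and 132 in SV1 to SV4 and 1018, 852 and 719 in RT1 to RT3 and -2.99 ± 0.42 (adjusted p = 0.00055). All SV arrays lay below all RT arrays in these genes. Dnah11 (40.3–76.4 against 304–546, -3.01 ± 0.43), a dynein heavy chain, and Rfx3 (192–278 against 519–773, -1.42 ± 0.22) were also lower. Dynlrb2, a dynein light chain, differed most of the list at -3.35 ± 0.78 (adjusted p = 0.0113), with 484, 192, 121 and 259.8 in SV1 to SV4 and 3367, 3266 and 1223 in RT1 to RT3, but was not called without RT1 or RT2. Without RT1 and without RT2, 5 and 6 of the 19 were called. RT3 was the lowest RT array for each of Foxj1, Rsph4a, Ccdc39 and Dynlrb2, and the summed signal of the list was 8211–16120 over the RT arrays, 3894–5298 over the SV and 3163–3349 over the ST.

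GTTGCC, one arm of the X-box bound by RFX factors, was searched on both strands of the leading promoters. It was found in 4 of the 21 promoters of genes lower in the SV (Aqp1, Cdhr4, Dynlrb2 and Slc7a9) and in 1 of the 23 of genes higher, Pcsk1n, against 12.7% of all 27025 promoters. The Dynlrb2 promoter, chr8:116504765-116505064 on the plus strand of GRCm38.p6, is shown as that of a leading gene of the cilium list, with these letters in capitals.
Dynlrb2: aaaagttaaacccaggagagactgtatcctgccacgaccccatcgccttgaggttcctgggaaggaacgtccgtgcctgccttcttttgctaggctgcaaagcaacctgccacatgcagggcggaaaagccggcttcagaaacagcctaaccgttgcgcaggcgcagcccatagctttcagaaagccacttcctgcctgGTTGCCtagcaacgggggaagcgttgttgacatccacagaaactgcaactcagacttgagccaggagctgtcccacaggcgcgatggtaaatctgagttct

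Transport of water and ions was the function with the most genes called lower after cilia, 9 of 23 with 3 higher and a median of -0.92. The shares over all genes were 6.41% lower and 4.39% higher. Cftr, the chloride channel, had signals of 171, 96.1, 50.4 and 159.7 in SV1 to SV4 and 1441, 1255 and 1432 in RT1 to RT3 and a difference of -3.68 ± 0.39 (adjusted p = 0.000192). Aqp1, a water channel, had 281, 199, 97.9 and 260.1 in SV1 to SV4 and 4144, 3109 and 878 in RT1 to RT3 and -3.53 ± 0.47 (adjusted p = 0.000422), and Slc9a3, a sodium-proton exchanger, had 61.5, 64.7, 20.2 and 95.5 in SV1 to SV4 and 1196, 1093 and 256 in RT1 to RT3 and -3.72 ± 0.56 (adjusted p = 0.000868). These 3 are leading genes, for which no overlap between SV and RT arrays was a condition of choice. The 1 further probe set of Cftr and that of Slc9a3 were not called. Car2 (123–354 against 665–1120.1, -1.93 ± 0.35), for a carbonic anhydrase, and the bicarbonate transporter gene Slc4a4 (96.4–173 against 235–681, -1.84 ± 0.34) followed. Slc26a3, a chloride-bicarbonate exchanger, had 52.4, 29.3, 7.80 and 55.6 in SV1 to SV4 and 893, 791 and 114 in RT1 to RT3 and -3.92 ± 0.86 (adjusted p = 0.00848), but was not called without RT1 or RT2. The 3 that were higher were all aquaporin genes, Aqp8, Aqp5 (406–516 against 113–237, 1.47 ± 0.22) and Aqp2 (724–1563 against 501–736, 1.08 ± 0.26), the last not without SV1, SV4, RT1 or RT2. Without RT1 or RT2, 5 of the 23 were called lower.

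Some transcription factors of the ducts were lower in the SV, while the list of mesonephric duct and gonadal factors had a median log2 difference of -0.02. The counts of transcription factors stand against 4.39% of all genes called higher and 6.41% called lower. Emx2, a homeobox gene needed for the urogenital ducts, had signals of 679, 298, 169 and 349 in SV1 to SV4 and 3491, 2870.4 and 2088 in RT1 to RT3 and a difference of -3.06 ± 0.38 (adjusted p = 0.000309), and Sox17, a factor of endoderm, vessels and RT, had 1939, 907, 664 and 1468 in SV1 to SV4 and 5824, 4879.8 and 4179 in RT1 to RT3 and -2.10 ± 0.35 (adjusted p = 0.00158). With Pax8 and Gata3 (3.27–8.0 against 23.2–111, -3.54 ± 0.77), the last dim in the SV and not called without RT1 or RT2, these were the 4 of 16 mesonephric duct and gonadal factors that were lower, and Dmrt1 and Sox8 were the 2 that were higher. Of 17 regulators of epithelial identity 2 were lower, the ETS factor genes Ehf (82.2–235 against 506–752, -2.17 ± 0.36) and Elf3 (121–299.6 against 431–778, -1.76 ± 0.32). The median of the mesonephric duct and gonadal factors turned to 0.29 with median centring. Of 16 Hox genes 6 were lower and none higher, with a median of -0.82, and Hoxb3 (96.4–192 against 303–644, -1.68 ± 0.31) was called whichever array was left out. The Hox count rested on single arrays, with 1 of 16 called without RT1, RT2 or SV3, 2 without SV2 and 3 without SV4. With quantile normalization 2 of the 16 were called lower.

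Signals and receptors differed by family, against a background of 4.39% of all genes called higher and 6.41% called lower. Of 21 FGF genes 5 were lower in the SV and 1 higher. Fgfr2, a receptor, had signals of 2359, 1191, 822 and 1993 in SV1 to SV4 and 5378, 5135 and 6352 in RT1 to RT3 and a difference of -1.93 ± 0.29 (adjusted p = 0.000814), and was the only FGF gene called lower without RT1 or RT2. The ligand gene Fgf9 had 84.8, 32.5, 17.3 and 17.1 in SV1 to SV4 and 156, 189 and 115 in RT1 to RT3 and -2.32 ± 0.55 (adjusted p = 0.0132), and was not called without RT1 or RT2. Kl (15.3–38.0 against 51.3–269, -2.39 ± 0.64), a co-receptor, Fgfr3 (98.3–213 against 209–513, -1.50 ± 0.37), a receptor, and Fgf1 (100.1–130.3 against 152–427, -1.38 ± 0.36), a ligand, were also called with all arrays and not without RT1 or RT2, Kl also not without SV2 or SV3 and Fgf1 not without SV4. Fgf10, another ligand, had 32.5–51.2 and 55.4–100.3, and its difference of -0.93 (95% interval -2.54 to 0.68) was not called, nor was that of the receptor gene Fgfr1 at -0.57 (95% interval -0.86 to -0.27). The 1 that was higher, Fgf13 (404–889 against 209–315, 1.01 ± 0.24), lost its call without SV3 or RT1. Of 20 genes of heparan sulfate proteoglycans, which hold FGFs at the cell surface and matrix, the core protein genes Agrn (375–572 against 1283–1531, -1.55 ± 0.23) and Gpc1 (334–481 against 983–1171, -1.45 ± 0.21) were lower, none was higher, and for 12 the interval lay within 2-fold.

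Of 24 WNT ligands and antagonists 4 were higher and 2 lower, with a median log2 difference of -0.02 that scaling turned to 0.17 (quantile) and 0.29 (median centring). Rspo1, which strengthens WNT signals, had 1103, 648, 275 and 654 in SV1 to SV4 and 3873, 3653 and 2195 in RT1 to RT3 and -2.39 ± 0.38 (adjusted p = 0.00123), and Dkk3 (134–576 against 1091–1922, -2.40 ± 0.38), of the Dickkopf family, was lower with it. Wif1 (131–185 against 31.1–67.6, 1.88 ± 0.31) and Sfrp4 (283–369.8 against 74.8–206, 1.16 ± 0.34), both secreted antagonists, were higher beside Frzb and Wnt4, Sfrp4 not without SV1, SV2, SV3, SV4, RT2, ST2 or ST4. Of 21 TGF-beta, activin and BMP genes 5 were higher and 3 lower. Inha and Inhbb, subunits of inhibin, were higher with Fstl3, the ligand gene Tgfb1 (233–493 against 121–187, 1.38 ± 0.29) and Amh (37.3–125 against 6.31–30.3, 2.40 ± 0.57), the anti-Müllerian hormone of Sertoli cells, Amh not without RT1. Tgfb2 was lower, with 1356, 786, 636 and 1296 in SV1 to SV4 and 4495, 3879 and 3788 in RT1 to RT3 and -2.06 ± 0.28 (adjusted p = 0.000513), as were the BMP ligand genes Bmp6 (92.5–264 against 629–672, -1.78 ± 0.32) and Bmp7 (104–215 against 444–642, -1.72 ± 0.27). In the hedgehog pathway the ligand gene of Sertoli cells, Dhh, was higher with 2499, 3255, 5453 and 3652 in SV1 to SV4 and 895, 1117 and 1556 in RT1 to RT3 and 1.62 ± 0.24 (adjusted p = 0.000738). The other ligand gene called, Ihh (27.1–60.1 against 68.2–349.5, -2.31 ± 0.53), was lower but not without RT1 or RT2, and Gli2 (189–404 against 1011–1339, -2.05 ± 0.25) and Smo (898–2012 against 3416–4072, -1.47 ± 0.23), a transcription factor and a signal transducer of the pathway, were lower.

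Of 12 GDNF family and KIT signalling genes 4 were lower and 1 higher. Beside Gfra1 and Ret these were Ncam1, an adhesion molecule and GDNF receptor, with 755, 408, 283 and 599 in SV1 to SV4 and 3403, 3005 and 2664 in RT1 to RT3 and -2.65 ± 0.57 (adjusted p = 0.00707), and Nrtn (164–276 against 567–971, -1.93 ± 0.27), the ligand neurturin. Kitl, the KIT ligand made by Sertoli cells, was higher, with 6453, 7106, 8018 and 6882 in SV1 to SV4 and 2735, 3334 and 4249.5 in RT1 to RT3 and 1.07 ± 0.15 (adjusted p = 0.000543), though not called without RT1. Among 12 EGF family genes 4 were lower, including the ligand gene Tgfa (157–307 against 483–697, -1.45 ± 0.25) and the receptor gene Erbb3 (289–363 against 522–1008, -1.29 ± 0.23), and 2 of the 12 were called without SV3 or with quantile normalization. Among 14 Notch pathway genes the receptor genes Notch1 (787–980.1 against 1868–2076, -1.18 ± 0.16) and Notch2 (1767–2762 against 4889.5–5864, -1.25 ± 0.23) were lower, and with the replicate block 4 of the 14 were called lower. Of 10 IGF genes Igfbp5 and Igf1 (3064–6103 against 8564–11669, -1.10 ± 0.21) were lower, Igf1 not without SV3 or RT1. Of 23 axon guidance genes 6 were lower and 3 higher, among them the ephrin gene Efnb2 (942–1668 against 4041–4249, -1.60 ± 0.20), lower, and the netrin gene Ntn4 (1705–3590.0 against 451–946, 1.88 ± 0.26), higher. Without SV3 1 axon guidance gene was called in each direction, without RT1 2 were called lower and 1 higher, and without RT2 or with quantile normalization 3 lower.

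The counts in the remaining lists are to be read against 4.39% of all genes called higher and 6.41% called lower. Of 13 STAT3 and AKT target genes the kinase gene Pim1 (1216–3359.7 against 313–983, 1.75 ± 0.40) was higher, but not without RT1 or RT2, and Igfbp1 (1.30–40.1 against 76.8–389, -4.72 ± 1.01), an IGF-binding protein, was lower. Of 17 cell cycle genes 3 were higher, led by Cdk1, the kinase of mitotic entry, with 1010.0, 1278, 2192 and 1337 in SV1 to SV4 and 218, 270.1 and 548 in RT1 to RT3 and 2.13 ± 0.29 (adjusted p = 0.000484), and 3 lower, led by Ccnd1, a cyclin of G1 phase, with 1547, 1161, 498 and 1335 in SV1 to SV4 and 3929.9, 3683 and 3242 in RT1 to RT3 and -1.79 ± 0.30 (adjusted p = 0.00165). Without RT1 or RT2, Cdk1 was the 1 cell cycle gene still called higher, while quantile normalization gave 6 higher. In the basement membrane list of 19, the laminin genes Lama1 (1005–2057 against 367–725, 1.48 ± 0.26) and Lama3 (314–503 against 143–192, 1.30 ± 0.19) and the integrin gene Itga6 (3306–5361 against 1547–2564, 1.19 ± 0.20) were higher and Lama5 (158–288 against 718–795, -1.83 ± 0.27) and Itgb4 (24.2–51.8 against 102–156, -1.83 ± 0.51) lower, Itgb4 not without SV1, SV3, SV4, RT1 or RT2. Of 12 antimicrobial genes, the defensin gene Defb19 (17227–22283 against 6656–11264, 1.21 ± 0.19), the protease inhibitor gene Wfdc1 (821–1191 against 423–479, 1.13 ± 0.16) and the cathelicidin gene Camp (99.6–128 against 7.99–50.6, 2.28 ± 0.63) were higher, Camp not without SV2, SV3, SV4, RT1 or RT2. Wfdc2, a protease inhibitor of duct epithelia, was lower with 954, 466, 312 and 762 in SV1 to SV4 and 3969.5, 3651 and 3800.0 in RT1 to RT3 and -2.74 ± 0.37 (adjusted p = 0.000478). With the replicate block 3 of the 12 were called lower. Of 20 glutathione and antioxidant genes the transferase gene Gsta4 (12011–15678 against 5781–7036, 1.11 ± 0.14) was higher and Gpx3 (1101–2864 against 5569–9011, -1.94 ± 0.28), a secreted peroxidase, lower. Of 16 genes of glycolysis the hexokinase gene Hk2 (3406–6732 against 1515–2902, 1.21 ± 0.24) was higher and Hk1 (733–1379 against 2557–3139.7, -1.43 ± 0.20) lower, with the phosphofructokinase gene Pfkp (111–236 against 323–403, -1.12 ± 0.26) lower but not without SV3 or RT1. Of 12 genes of cholesterol synthesis 1 was higher, Dhcr7 (2775–4377 against 1141–2254, 1.11 ± 0.22), not without SV2 or RT1. Of 6 MHC class II genes 1 was lower, Cd74 (927–2774 against 2822–5919, -1.29 ± 0.33), the invariant chain, not without SV3, RT1 or RT2. The chemokine gene Cx3cl1 (235–352 against 537–805, -1.08 ± 0.20), not called without SV3 or RT1, and the early response gene Ier3 (2081–3946 against 6772–9096, -1.41 ± 0.21) were the only genes called in their lists, both lower. Of 11 interferon-induced genes Usp18 (255–441 against 80.5–167, 1.44 ± 0.26) was higher and Oasl2 (279.6–478 against 741–962, -1.23 ± 0.22) lower, and of 15 serpins and cathepsins Serpina3n was higher and Serpinb6b (616–1469.7 against 1712–2599, -1.04 ± 0.27) lower, not without SV3, SV4, RT1 or RT2. With the replicate block 3 of the 11 interferon-induced genes were called lower.

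Of 39 measured genes that the study names for its arrays, 7 were higher in the SV than in the RT and 14 lower, against 4.39% and 6.41% of all genes. This list was chosen by the study on these samples and is no independent evidence. Beside those given above, Asic2 (159–280.2 against 46.4–139, 1.30 ± 0.37), an ion channel gene, was higher but not without SV1, SV3, SV4, RT1 or RT2, and Amph (62.7–119 against 276–439, -1.94 ± 0.45), an endocytosis gene, was lower but not without RT1. Skor1 (1.47–2.75 against 8.20–21.8, -2.97 ± 0.73), a corepressor gene, was called lower at signals under a floor of 32 in every SV and RT array, so that no difference was left above that floor, and it was not called without RT1. The 18 that were not called include Sfrp1 at 0.06 (95% interval -0.37 to 0.49), Ctsh at 0.25 (95% interval -0.09 to 0.60), Ly6h at -0.09 (95% interval -0.50 to 0.31) and Ly6d at 1.50 (95% interval 0.13 to 2.87). Without RT1 2 of the 39 were called higher and 8 lower, without RT2 2 were called higher, and without SV4 3.

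The level of the leading genes in the ST was then compared with that in the SV. This comparison shares the 4 SV arrays with the one against the RT, so the 2 sets of differences are not independent. Over all probe sets, 1.5% were called higher and 0.0665% lower in the SV than in the ST, and for 42.1% the interval lay within 2-fold. Of the 25 leading genes higher in the SV than in the RT, 6 had the level of the SV in the ST, in that the 95% interval of SV minus ST lay within 2-fold. These were Cstdc1 at 0.17 (95% interval -0.51 to 0.84), Bend6 at -0.20 (95% interval -0.71 to 0.32), 4930550L24Rik at -0.41 (95% interval -0.97 to 0.15), Lrp8 at -0.41 (95% interval -0.93 to 0.11), Pcsk1n at 0.00 (95% interval -0.80 to 0.81) and Frzb at -0.19 (95% interval -0.89 to 0.51). Cyp26a1 was called higher in the SV. The other 18 were not settled, and none was called lower in the SV than in the ST. The SV mean was below the ST mean in 21 of the 25, by most in Mael at -1.32 (95% interval -2.61 to -0.03), and in Dazl, Racgap1, Ct55, Mageb16, Gm9112, Morc1, Mael and Tsx the whole interval lay below 0. These counts moved with the fit. With the replicate block 10 of the 25 lay within 2-fold and 3 were called different, without RT3 11 and 3, and without SV3 3 and 2.

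Of the 25 leading genes lower in the SV than in the RT, none had an interval within 2-fold against the ST. For 9 the SV was called higher than the ST, so that the SV lay between the 2 other regions. Plet1 was highest above the ST at 6.31 (95% interval 5.40 to 7.21), followed by Dynlrb2 at 4.74 (95% interval 3.19 to 6.30), Cldn9 at 4.69 (95% interval 3.08 to 6.31), Hoatz at 4.12 (95% interval 2.77 to 5.48), Igfbp5 at 4.02 (95% interval 2.98 to 5.06) and Cdh16 at 3.54 (95% interval 2.15 to 4.93). The others were Shisa2 at 2.50 (95% interval 1.31 to 3.68), Aqp1 at 2.18 (95% interval 1.25 to 3.12) and Cftr at 2.14 (95% interval 1.35 to 2.92). The other 16 were not settled. Among them, in Tmem212, Mmp7, B4galnt2, Prom1, Cldn2, Adgrg2, Slc7a9, Calml3, Aadac and Mapk8ip2 the whole interval lay above 0. With the replicate block 14 of the 25 were called different and 1 lay within 2-fold. The SV mean was above the ST mean in 24 of the 25, and the exception was Slc9a3 at -0.03 (95% interval -1.15 to 1.09), with 52.8, 57.7, 44.5 and 60.6 in ST1 to ST4.

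**Figure D5:**
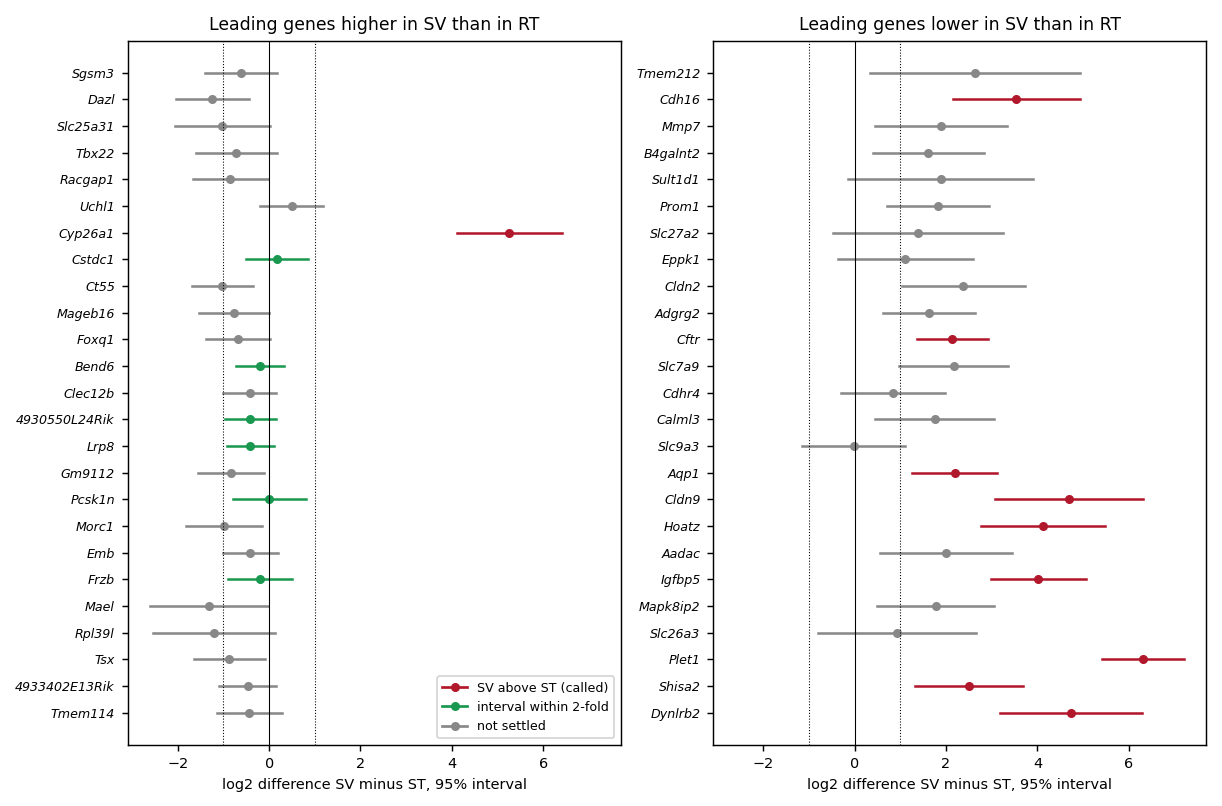
Log2 difference of the SV from the ST (x axis) for the 25 leading genes higher in the SV than in the RT (left) and the 25 lower (right). Points are the estimates and lines their 95% intervals, green where the interval lies within 2-fold (dotted lines at -1 and 1), red where the SV was called above the ST and grey where neither holds. Cyp26a1 is the 1 red gene on the left, and 9 genes on the right are red.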

How the data were processed

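Total RNA of SV, RT and ST pieces was labelled and hybridized to Affymetrix Mouse Genome 430 2.0 arrays, 1 array per pool of 20 testes. The deposited values are MAS5.0 signals, an intensity per probe set that the authors scaled per array. After 2% of values were trimmed from each end, the mean was the same on every array to within rounding. Scanner values were not used here. The number of arrays limits the precision.

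The signals were taken as log2 and fitted over all 11 arrays by lmFit and trended eBayes of limma 3.58.1, under R 4.3.3, with p-values adjusted by Benjamini-Hochberg over 45101 probe sets. Calls needed an adjusted p under 0.05 and over 2-fold. Fold changes of dim probe sets are uncertain, so the leading genes were ranked after a floor of 32. Per gene and list, the probe set with the highest mean signal was used, as named by the platform annotation, and probe sets with several symbols were left out. For a leading gene it was the brightest among its called probe sets without overlap between SV and RT arrays, so a brighter probe set that was not called could be passed over. Named were 25 leading genes per direction, up to 4 called members per direction of each list and genes the study names. List members that were not called were named after their values were seen. The lists and the comparison were chosen with earlier results of these data known. Figures were drawn with matplotlib 3.10.9, and the fit was tested on simulated data.

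Replicate numbers are shared between regions in the labels. Deviations from the group means of same-numbered SV and RT arrays correlated across probe sets at 0.114, 0.100 and 0.148. SV4 and RT3 correlated at 0.178, SV1 and RT2 at 0.0742, and SV2 and RT1 at 0.0699. Pairs of SV1 or SV2 with RT3, and of SV3 or SV4 with RT1 or RT2, were all negative, from -0.172 to -0.0761. In the brighter 50% of probe sets the values were larger. Same-numbered arrays correlated there at 0.467, 0.444 and 0.432, SV4 and RT3 at 0.477, SV1 and RT2 at 0.299, and SV2 and RT1 at 0.280. The negative pairs ran from -0.535 to -0.276. These values follow the split of the earlier from the later replicates, and pairing by number was not settled. The main fit took the arrays as unpaired, and the replicate number served as a block in an alternative fit. Alternatives were quantile normalization, median centring, an added constant or floor of 32, a filter on dim probe sets, no trend, the methods' t-test with and without adjustment, fewer arrays, both blocks, no fold threshold, 1 probe set for each gene and each array left out in turn.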

Additional observations from a re-analysis of the deposited data

Results flagged for a closer look

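In groups of 4 arrays, an array was singled out where its distance to the nearest other array passed Dixon's 95% limit as a share of the group's range. This held for 15 of 280 groups, and chance singles out about 1 in 20. Among SV arrays, SV3 stood apart in 4 named genes. It was high for Sgsm3, the first of the leading genes, with a signal of 896 against 403–435 in the other SV arrays. It was low for Kit, with 542 against 1546–1732, and for Cnn1, with 150.3 against 205–214. It was high for Skor1, at signals of 2.75 against 1.47–1.60 that are all dim. SV3 also stood apart in the median log2 signal above the RT mean of 5 lists. That median was -1.25 in SV3 for lymphatic endothelium markers against -0.35 to -0.20 in the other SV arrays, -0.90 for FGF ligands and receptors against -0.55 to -0.52, and -0.88 for interferon-induced genes against -0.23 to -0.20. For cholesterol synthesis and uptake genes it was -0.29 against 0.37 to 0.49, and for immediate early genes 0.69 against -0.53 to -0.33. SV1 was low for the protamine gene Prm1, with 4.63 against 44.2–51.7, and SV4 high for Ret, with 115.1 against 92.0–95.6.

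Among ST arrays, ST1 stood apart in 4 leading genes. It was low for the germ cell genes Mael (267 against 814–926), Slc25a31 (364 against 1130–1253) and Rpl39l (459 against 1503–1650). It was high for Cdh16, with 50.1 against 5.38–7.14.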

How the results depend on the processing

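The 2 regions rest on 4 and 3 arrays, and the ST arrays also entered the spread. RT3 was the RT array nearest to the SV in most called probe sets. Leaving out 1 array gave 878 to 1725 probe sets higher and 1194 to 2386 lower in the SV. Replicates 3 and 4 alone (a single RT array, whose spread is taken from the other groups) gave 0 and 0 at the adjusted threshold and 1656 and 2321 at an unadjusted p under 0.05 and over 2-fold by limma. There the difference of Cldn7 turned to 0.083. Median centring gave 2710 and 1349, the methods' t-test after Benjamini-Hochberg 385 and 826 (1576 and 3330 unadjusted), 1 probe set per gene 850 and 1292, and no fold threshold 2905 and 3463. Fewer features or a looser threshold explain the last pairs by construction, and the other causes were not tested.

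With the replicate block, 1499 probe sets were higher and 3593 lower, and none of the 187 named genes changed its call against the RT. Of 172 named genes called, calls were lost by 44 without RT1, 31 without RT2, 16 with median centring, 7 with quantile normalization, 10 with a floor and 115 with the adjusted t-test.

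For the level in the ST, the 25 leading genes higher in the SV gave 1 called different and 6 within 2-fold. The pair was 3 and 10 with the replicate block and with the unadjusted t-test, 2 and 10 with the block of replicates 1 and 2 against 3 and 4, 4 and 3 in replicates 1 and 2 alone, and 0 and 13 in replicates 3 and 4 alone. Those within were 2 with a floor, 3 without the trend and 10 with the adjusted t-test. Among bright probe sets 0 were called different. Cyp26a1, the 1 gene called, was left out there as a dim probe set and so was not tested. For the 25 lower in the SV, 9 were called different and 0 lay within. Called were 4 with a floor, 17 and 1 with the t-test before and after adjustment, 14 with the replicate block, 15 in replicates 1 and 2 and 0 in replicates 3 and 4. With a floor, an added constant, the replicate block or replicates 1 and 2, 1 lay within. Leaving out 1 array gave, for the genes higher in the SV, 1 to 3 called and 3 to 11 within, and for those lower 7 to 13 and 0 to 1.

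Median list differences changed sign with the scaling for WNT genes (-0.02, 0.17 with quantile normalization and 0.29 with median centring), mesothelium (-0.05, 0.24 and 0.26) and epithelial regulators (0.14 and 0.26). With median centring alone they did so for GDNF and KIT genes (0.15), STAT3 and AKT targets (0.26), antimicrobial genes (0.22), endothelium (0.12), immediate early genes (0.02), macrophages (0.28) and mesonephric and gonadal factors (0.29).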

Other observations

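Genes of the X chromosome were frequent among those higher in the SV than in the RT, a count made after the values were seen and given without a test. The X chromosome held 617 of 18032 measured genes with a chromosome in the annotation (3.42%). Among genes called higher in the SV it held 62 of 797 (7.78%), and among those called lower 42 of 1160 (3.62%). Of the 25 leading genes higher in the SV, 8 were X-linked, namely Tbx22, Ct55, Mageb16, 4930550L24Rik, Gm9112, Pcsk1n, Tsx and 4933402E13Rik. Of the 25 leading genes lower in the SV, 2 were, Cldn2 and Adgrg2. Of the others, 4.22% were called higher and 6.42% lower, whereas the median log2 difference was -0.02 on the X chromosome and -0.04 elsewhere.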
